A study of Mus musculus with 30 samples.

Results

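The nuclear genes that encode subunits of the respiratory chain and of ATP synthase were described in mouse bone marrow derived macrophages. Protein-coding nuclear genes were taken by symbol: those beginning with Ndufa (without the Ndufaf assembly factors), Ndufb, Ndufc, Ndufs, Ndufv, Uqcr, Cox4 to Cox8 or Atp5, together with Sdha, Sdhb, Sdhc, Sdhd and Cyc1. The rule found 86 genes among the 43629 gene IDs of the count tables. Of these, 38 belong to complex I, 4 to complex II, 9 to complex III, 18 to complex IV and 17 to complex V. The symbol decided the complex, so Ndufa4, whose product is now placed with complex IV, was counted with complex I. Cox7a2l, a factor linked to supercomplexes of complexes III and IV, and Atp5s, a coupling factor of ATP synthase, were kept with complexes IV and V. Whether Cox7a2l has that role in these cells was not tested. The genes lie on 19 chromosomes. Another 11 genes with such symbols are annotated as processed pseudogenes and were left out, and counts of subunits with such near-identical copies are uncertain to that extent.

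Complex I (NADH dehydrogenase) and complex II (succinate dehydrogenase) pass electrons to coenzyme Q. Complex III (cytochrome bc1) passes them on to cytochrome c and complex IV (cytochrome c oxidase) to oxygen. Complexes I, III and IV pump protons and so build the membrane potential of the inner mitochondrial membrane, which complex V (ATP synthase) uses to make ATP. Most subunits are encoded in the nucleus and a few core ones in mitochondrial DNA. Nuclear respiratory factors, ETS family factors, YY1 and the estrogen related receptors with their PGC-1 coactivators are known regulators of the nuclear genes. Alternatively activated macrophages are known for their reliance on oxidative metabolism.

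All libraries came from macrophages of C57BL/6 mice grown with CSF-1 (20 ng/mL), which drives macrophage differentiation, and used on day 7. Wild type macrophages received IL-4 (20 ng/mL) with prostaglandin E2 (PGE2, 10 µM), IL-4 with valinomycin (10 nM), IL-4 alone or no stimulus. IL-4 induces alternative activation, PGE2 signals through cyclic AMP, and valinomycin carries potassium ions across membranes, which dissipates the mitochondrial membrane potential. Macrophages transduced with lentivirus carrying a short hairpin RNA (shRNA) against Etv1, an ETS family transcription factor, or a control shRNA received IL-4 with PGE2, IL-4 alone or no stimulus. Each of the 10 groups held 3 libraries. The labels name 1 Etv1 and 1 control hairpin group and do not say whether replicates were separate mice or cultures. The p-values therefore rest on a spread among samples that may be technical. The stimulation time is not given in the sources used here.

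The 12 wild type libraries held 10514496 to 13414293 counts each and the 18 shRNA libraries 6924973 to 30473040. Levels are given as CPM, gene counts scaled by the effective library size, set within an experiment and not compared between the 2 experiments. Without stimulus, with IL-4 and with IL-4 plus PGE2, Etv1 itself averaged 3.44, 5.33 and 8.89 CPM in Etv1 shRNA cells, against 10.6, 13.9 and 28.0 CPM in control shRNA cells. All 8 macrophage markers were detected in every group. Their summed level was 8902 to 10386 CPM in Etv1 shRNA libraries, against 15895 to 21465 CPM in control shRNA libraries, and 14362 to 19083 CPM in wild type libraries. Neutrophil markers summed to 212 to 342 CPM in wild type libraries and to at most 2.46 CPM in shRNA libraries. Markers of dendritic cells, lymphocytes, stroma, mast cells with basophils, and erythroid cells with megakaryocytes each summed to at most 8.21 CPM in any library.

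Promoter sequence was read for the genes from RefSeq (GRCm38.p6, 250 bases before to 50 bases after the start of the gene). A window was matched for 67 of the 86 genes. The NRF1 letters GCGCNTGCG, read on both strands, were in 23 of the 67 windows (34.3%), against 15.7% of the windows of tested genes and 7.12% of all windows. The narrower form GCGCATGCG, which the first form includes, was in 8 windows (11.9%, against 4.29% of tested genes). The YY1 letters AAGATGGCG were in 7 windows (10.4%, against 3.77%) and the estrogen related receptor letters TCAAGGTCA in 2 (2.99%, against 0.327%). The ETS letters CCGGAAGT were in 5 (7.46%, against 9.71% of tested genes): Atp5h, Cox8a, Ndufs3, Uqcr11 and Uqcrh. Such a match describes the letters of a window and is not evidence of binding. The windows of 4 genes that recur in the results are shown 5′ to 3′ along the gene, with the matched letters of either strand in capitals.
Uqcrc1 (chr9:108936398-108936697, plus strand; NRF1 letters): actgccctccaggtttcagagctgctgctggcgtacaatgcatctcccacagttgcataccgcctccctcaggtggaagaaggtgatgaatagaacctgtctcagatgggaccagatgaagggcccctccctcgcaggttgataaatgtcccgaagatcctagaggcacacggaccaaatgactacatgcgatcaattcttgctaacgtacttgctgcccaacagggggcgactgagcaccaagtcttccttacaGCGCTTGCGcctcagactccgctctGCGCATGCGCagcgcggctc
Uqcr11 (chr10:80406772-80407071, minus strand; ETS letters, then NRF1 letters): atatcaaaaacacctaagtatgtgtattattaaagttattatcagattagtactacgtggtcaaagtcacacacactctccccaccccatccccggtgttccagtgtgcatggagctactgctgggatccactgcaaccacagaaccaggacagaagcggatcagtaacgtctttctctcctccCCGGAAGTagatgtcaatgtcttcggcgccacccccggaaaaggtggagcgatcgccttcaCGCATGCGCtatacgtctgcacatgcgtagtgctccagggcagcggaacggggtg
Ndufs7 (chr10:80249199-80249498, plus strand; YY1 letters): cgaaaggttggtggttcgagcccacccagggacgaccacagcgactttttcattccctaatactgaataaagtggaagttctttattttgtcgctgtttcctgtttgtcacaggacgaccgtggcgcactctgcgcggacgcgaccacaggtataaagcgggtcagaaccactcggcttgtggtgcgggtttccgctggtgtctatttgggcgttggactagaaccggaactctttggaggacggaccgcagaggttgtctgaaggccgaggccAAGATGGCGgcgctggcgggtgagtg
Ndufs3 (chr2:90904672-90904971, minus strand; ETS letters on the other strand): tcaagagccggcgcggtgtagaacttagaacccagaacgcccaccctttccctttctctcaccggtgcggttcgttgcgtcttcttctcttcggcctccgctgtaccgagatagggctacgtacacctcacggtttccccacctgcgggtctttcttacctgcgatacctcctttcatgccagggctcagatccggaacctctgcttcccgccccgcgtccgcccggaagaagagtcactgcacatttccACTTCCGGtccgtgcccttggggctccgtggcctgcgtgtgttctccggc
Counted from the annotated start as base 1, the NRF1 matches of Uqcrc1 begin at bases 6, 31 and 32, the last 2 overlapping. The YY1 match of Ndufs7 begins at base 25 and the ETS match of Ndufs3 at base 1. In Uqcr11 the NRF1 match begins at base -5 and the ETS match at base -66.

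The genes were read at well above the typical level of the cells. In unstimulated wild type cells the 81 members that passed the filter on low counts had a median of 61.4 CPM, against 25.1 CPM over all genes tested, and their median rank was at the 73.3 percentile. Per kilobase of transcript, the highest level in those cells among genes counted with complex I was Ndufa4 at 184 ± 7.82 CPM per kb (mean ± SD, n = 3). It is counted there by symbol only, as its product is now placed with complex IV. Cox4i1, the larger regulatory subunit of complex IV, read 352 ± 5.74 CPM per kb, and Atp5b, the catalytic beta subunit of ATP synthase, 336 ± 0.87 CPM per kb. The lowest levels among clearly detected members were Ndufb2 at 2.10 ± 0.157 and Atp5s at 3.60 ± 0.513 CPM per kb. Within complex II, the iron-sulfur subunit Sdhb (106 ± 1.15 CPM per kb) and the membrane anchor Sdhd (103 ± 2.47) stood above the flavoprotein Sdha (73.5 ± 1.54) and the other anchor Sdhc (36.3 ± 0.765). Before division by length, Sdha was the highest at 213 CPM, with Sdhd at 127, Sdhb at 121 and Sdhc at 115 CPM, so the order depends on the transcript lengths used.

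Where a subunit has tissue forms, the macrophages read nearly all of it from the general form. Cox6a1 was at 129 ± 3.96 CPM in unstimulated wild type cells and its heart and skeletal muscle form Cox6a2 at 0.923 ± 0.223 CPM, over transcripts of 571.0 and 680.0 bp. Cox7a2 was at 145 ± 0.921 CPM per kb and the muscle form Cox7a1 at 5.59 ± 1.17 CPM per kb. Cox6b1 was at 248 ± 0.315 and the testis form Cox6b2 at 1.11 ± 0.531 CPM per kb. Cox7b2 and Cox8b had 0 counts in all 30 libraries, and Cox8c had 1 count in 1 library, while Cox8a was at 275 ± 16.6 CPM per kb. A count of 0 allows up to 0.224 to 0.285 CPM in a wild type library and 0.0984 to 0.433 CPM in an shRNA library (3 counts, for counting error only). Ndufa4l2, the hypoxia-induced relative of Ndufa4, had at most 1 count per library, and Cox4i2, the hypoxia-linked form of Cox4i1, at most 7. These 5 genes were not tested in either experiment, and Cox6b2 was tested in wild type cells only. The c ring of ATP synthase is encoded by 3 genes for the same mature protein, of which Atp5g3 was at 195 ± 3.35, Atp5g2 at 105 ± 2.67 and Atp5g1 at 17.5 ± 1.69 CPM per kb. Before division by length they were at 140, 61.5 and 46.9 CPM, so the gap between Atp5g2 and Atp5g1 rests largely on the transcript lengths used.

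The first comparison set wild type cells given IL-4 against unstimulated ones. Genes of all 5 complexes were higher: 48 of the 81 tested members rose and none fell, where 24% of all 12824 tested genes rose and 22.4% fell (edgeR quasi-likelihood test, Benjamini-Hochberg adjusted p under 0.05). Of the 33 others, 29 had log2 fold changes above 0. The changes were small, with a median log2 fold change of 0.19 over the tested members, against 0.01 over all genes. By complex, 23 of 37 rose in complex I, 2 of 4 in II, 7 of 9 in III, 6 of 14 in IV and 10 of 17 in V. The summed level of the 86 genes was 7772, 8436 and 8036 CPM in the 3 IL-4 libraries, against 6887, 6892 and 7023 CPM in the unstimulated ones. All 3 IL-4 libraries were above all 3 unstimulated ones, and IL-4 replicate 1 was the lowest of the IL-4 libraries. In RNA of a bulk culture, fewer cells that express a gene and less RNA per cell cannot be told apart.

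**Figure D1:**
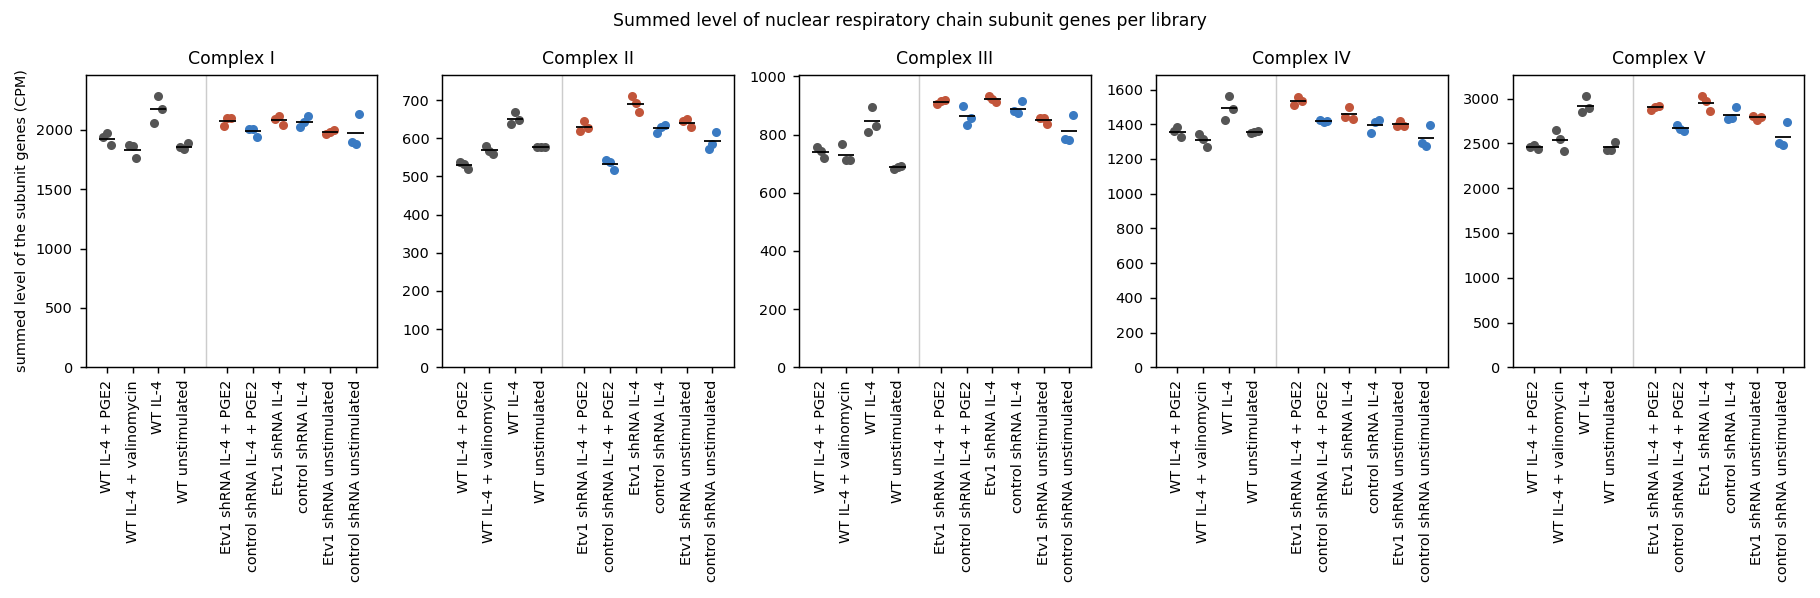
Summed level (CPM, y axes from 0) of the nuclear subunit genes of complexes I to V in each of the 30 libraries (points; black line, mean of 3), with wild type groups in grey, Etv1 shRNA in red and control shRNA in blue. In each of the 5 panels the wild type IL-4 mean is the highest of the 4 wild type means, for example 2922 CPM for complex V with IL-4 against 2456 CPM unstimulated.

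In complex I, the core subunits bind the flavin and iron-sulfur clusters or shape the quinone site. Ndufs7, the iron-sulfur protein beside the quinone site, was at 67.2, 73.0 and 69.1 CPM with IL-4, against 52.2, 51.5 and 53.2 CPM unstimulated. The groups did not overlap, and the log2 fold change was 0.42 ± 0.06 (± SE; edgeR adjusted p = 1.93e-06). Ndufs8, another iron-sulfur protein, changed by 0.40 ± 0.07 and Ndufs3, of the quinone module, by 0.32 ± 0.06. The flavoprotein gene Ndufv1 was not called (0.13 ± 0.07; edgeR adjusted p = 0.115). Among the accessory subunits, Ndufb9 of the distal membrane arm was at 69.3, 75.3 and 71.5 CPM with IL-4, against 49.7, 49.9 and 56.2 CPM unstimulated. That is the highest log2 fold change in complex I (0.47 ± 0.07; edgeR adjusted p = 1.73e-05). Ndufa12 (0.45 ± 0.10), Ndufv3 (0.43 ± 0.07), Ndufb8 (0.35 ± 0.06) and Ndufa8 (0.34 ± 0.05) rose as well.

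In complex II the catalytic pair rose, with Sdhb at 0.34 ± 0.06 and Sdha at 0.16 ± 0.04 on the log2 scale, while the anchors Sdhc (0.08 ± 0.05) and Sdhd (0.11 ± 0.05) were not called. In complex III, Uqcrc1, a core protein of the matrix side, had the largest log2 fold change of the members after the low Cox6a2. It read 189.7, 201 and 194 CPM with IL-4, against 129, 135 and 135 CPM unstimulated. The 3 IL-4 libraries lay far above the unstimulated ones (log2 fold change 0.55 ± 0.05; edgeR adjusted p = 1.21e-09). The small subunit Uqcr11 was at 75.3, 99.5 and 84.7 CPM with IL-4, against 64.0, 62.5 and 64.8 CPM unstimulated (0.44 ± 0.07; edgeR adjusted p = 2.96e-05). Cyc1, which encodes cytochrome c1, changed by 0.33 ± 0.06 and the Rieske iron-sulfur protein gene Uqcrfs1 by 0.23 ± 0.05. The hinge protein gene Uqcrh (0.12 ± 0.06) and Uqcrb (0.04 ± 0.08) were not called.

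In complex IV, Cox5a (0.35 ± 0.06), Cox5b (0.28 ± 0.06) and Cox6a1 (0.24 ± 0.05) rose. Cox7a2 (0.16 ± 0.05) and Cox4i1 (0.15 ± 0.06) passed more narrowly: the Cox7a2 call was lost without IL-4 replicate 3 or unstimulated replicate 3 (adjusted p up to 0.0932). The Cox4i1 call was lost without IL-4 replicate 2 or 3 or any unstimulated library (up to 0.224). The muscle form Cox6a2 had the largest log2 fold change of the members at a very low level. It read 1.57, 2.63 and 2.50 CPM with IL-4, against 0.852, 0.745 and 1.17 CPM unstimulated (1.25 ± 0.35; edgeR adjusted p = 0.00505). About 10.3% of its exon bases are shared with Itgad on the other strand. In complex V all 5 genes of the catalytic F1 sector rose, with Atp5b at 0.34 ± 0.05 and the alpha subunit gene Atp5a1 at 0.28 ± 0.04. Of the c ring genes, Atp5g1 (0.31 ± 0.07) and Atp5g3 (0.30 ± 0.06) rose and Atp5g2 did not pass (0.13 ± 0.06). Of the 4 peripheral stalk genes 3 rose, and Atp5s was the 1 member with an unadjusted p under 0.05 on the lower side (-0.38 ± 0.17; edgeR adjusted p = 0.0608). The F1 gene Atp5e lost its call without IL-4 replicate 2 (adjusted p 0.0937), and the stalk gene Atp5f1 without IL-4 replicate 2 or 3 or unstimulated replicate 1 or 2 (up to 0.142).

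**Figure D2:**
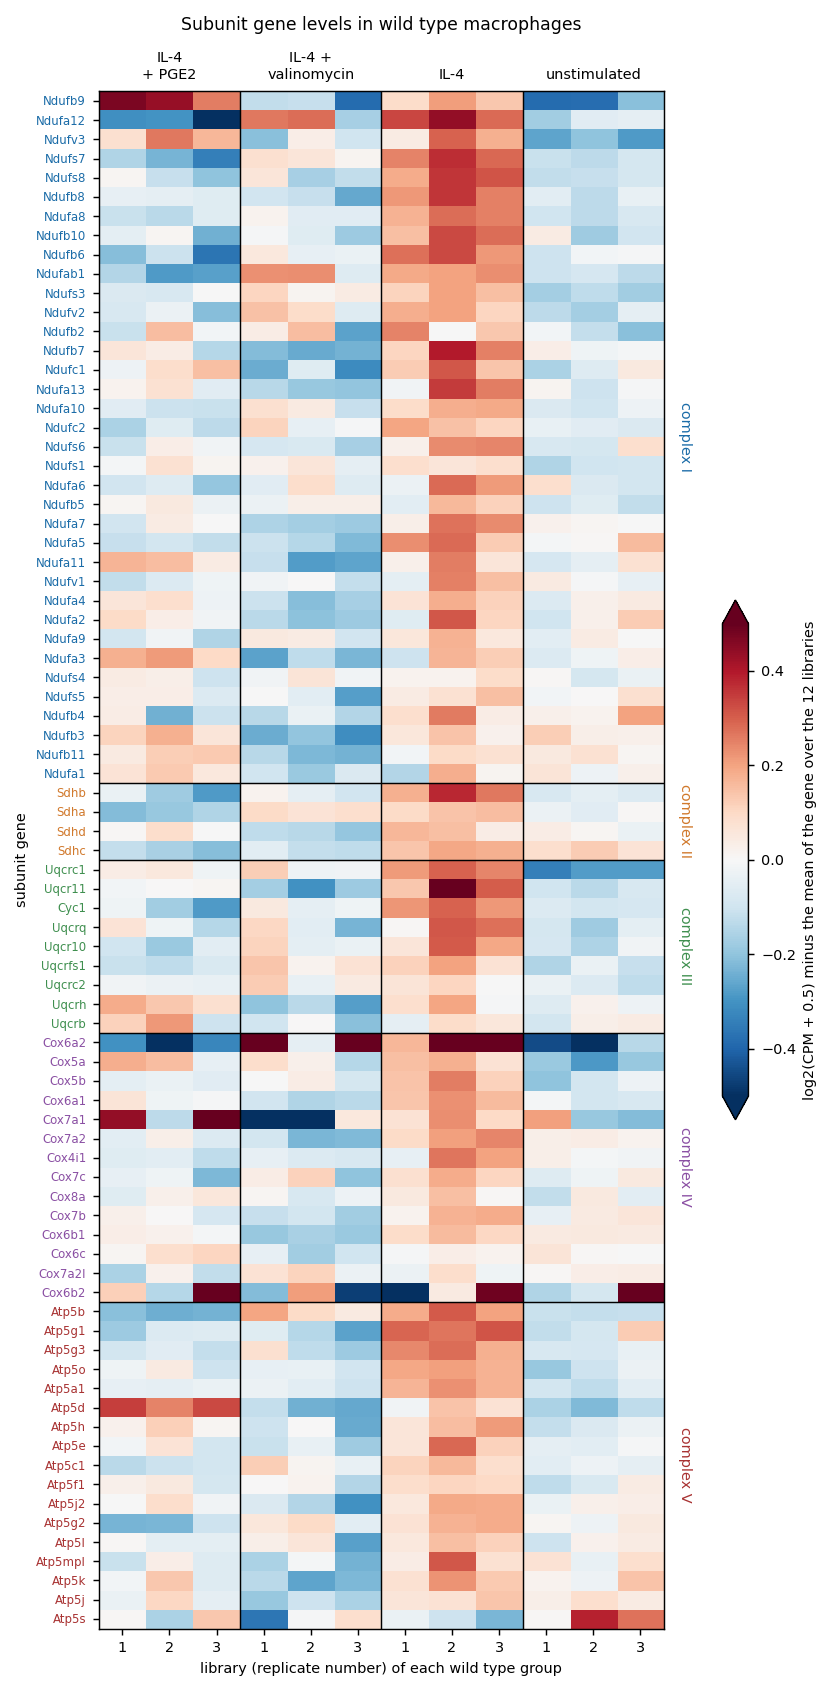
Level of 80 of the 81 tested subunit genes (rows, by complex and by log2 fold change with IL-4) in the 12 wild type libraries (columns), as log2(CPM + 0.5) minus the mean of the gene over the 12 libraries; colours are capped at -0.5 and 0.5. The 3 IL-4 libraries are the reddest block for most rows, with Ndufb9 and Atp5d redder with PGE2 and Atp5s, Cox6b2 and Cox7a1, which are low in level, without a steady pattern.

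The subunit transcripts are short, and short transcripts outside the list moved too. The tested members had a median length of 838 bp, against 2903 bp for tested protein-coding genes. With IL-4, the 682 other genes of up to 1000 bp had a median log2 fold change of 0.10, and 27.9% were higher and 9.97% lower, where 26 of the 50 members of that length rose (median 0.17). Of the 8 members between 2000 and 4000 bp, 6 rose (median 0.24, against 0.01 over 4761 other genes of that length). The part of transcript length in these results was not tested.

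In wild type cells, PGE2 given together with IL-4 was set against IL-4 alone. Of the 81 tested members, 48 fell and 2 rose, where 29.5% of all tested genes fell and 29.9% rose. The median log2 fold change was -0.20, against 0.01 over all genes. By complex, 22 of 37 fell in complex I, 3 of 4 in II, 6 of 9 in III, 8 of 14 in IV and 9 of 17 in V. The summed level was 7058, 7122 and 6874 CPM with IL-4 and PGE2, against 7772, 8436 and 8036 CPM with IL-4. Each PGE2 library lay below each IL-4 library. This comparison shares its 3 IL-4 libraries with the one of IL-4 against no stimulus and with the valinomycin one, so their values are given side by side and not related to each other.

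In complex I, Ndufs7 was at 50.8, 48.0 and 44.5 CPM with IL-4 and PGE2, against 67.2, 73.0 and 69.1 CPM with IL-4. The groups were well apart (-0.54 ± 0.06; edgeR adjusted p = 2.4e-08). Ndufs8 changed by -0.39 ± 0.07, and Ndufs1 (-0.05 ± 0.05), which encodes the largest subunit, was not called. The accessory Ndufa12 was at 16.9, 17.1 and 14.2 CPM with IL-4 and PGE2, against 26.8, 28.8 and 25.8 CPM with IL-4. Its log2 fold change of -0.75 ± 0.11 was the lowest in complex I (edgeR adjusted p = 1.98e-06). Ndufb6 (-0.51 ± 0.07) and Ndufab1, the mitochondrial acyl carrier protein (-0.44 ± 0.07), also fell. For Ndufb6, 39.0% of exon bases are shared with Smim27 on the other strand, for Atp5o 35.6% with D430001F17Rik and Gm15976, for Ndufa13 375 of 1251 bases with Tssk6 and for Uqcrc2 19.7% with Pdzd9. No source used here gives the strand setting of the counting, and reads of these genes and their partners may not be told apart.

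Ndufb9 went the other way in complex I. It was at 90.4, 88.1 and 77.9 CPM with IL-4 and PGE2, against 69.3, 75.3 and 71.5 CPM with IL-4. The lowest PGE2 library lay just above the highest IL-4 library (0.25 ± 0.07; edgeR adjusted p = 0.00453). Atp5d, the delta subunit of the ATP synthase central stalk, was the other member that rose. It was at 166, 155 and 164 CPM with IL-4 and PGE2, against 129, 144 and 138 CPM with IL-4 (0.24 ± 0.05; edgeR adjusted p = 0.000319). Its 4 partners in the F1 sector fell, with Atp5b at -0.46 ± 0.05, Atp5a1 at -0.23 ± 0.04, Atp5c1 at -0.23 ± 0.05 and Atp5e at -0.17 ± 0.06. The Atp5e call was lost without IL-4 replicate 2 or PGE2 replicate 3 (adjusted p up to 0.154). All 3 c ring genes fell (Atp5g1 -0.40 ± 0.07, Atp5g2 -0.34 ± 0.06, Atp5g3 -0.32 ± 0.06). Of the 4 peripheral stalk genes, Atp5o fell (-0.21 ± 0.05), while Atp5h (-0.10 ± 0.06), Atp5f1 (-0.10 ± 0.05) and Atp5j (-0.08 ± 0.05) were not called.

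**Figure D3:**
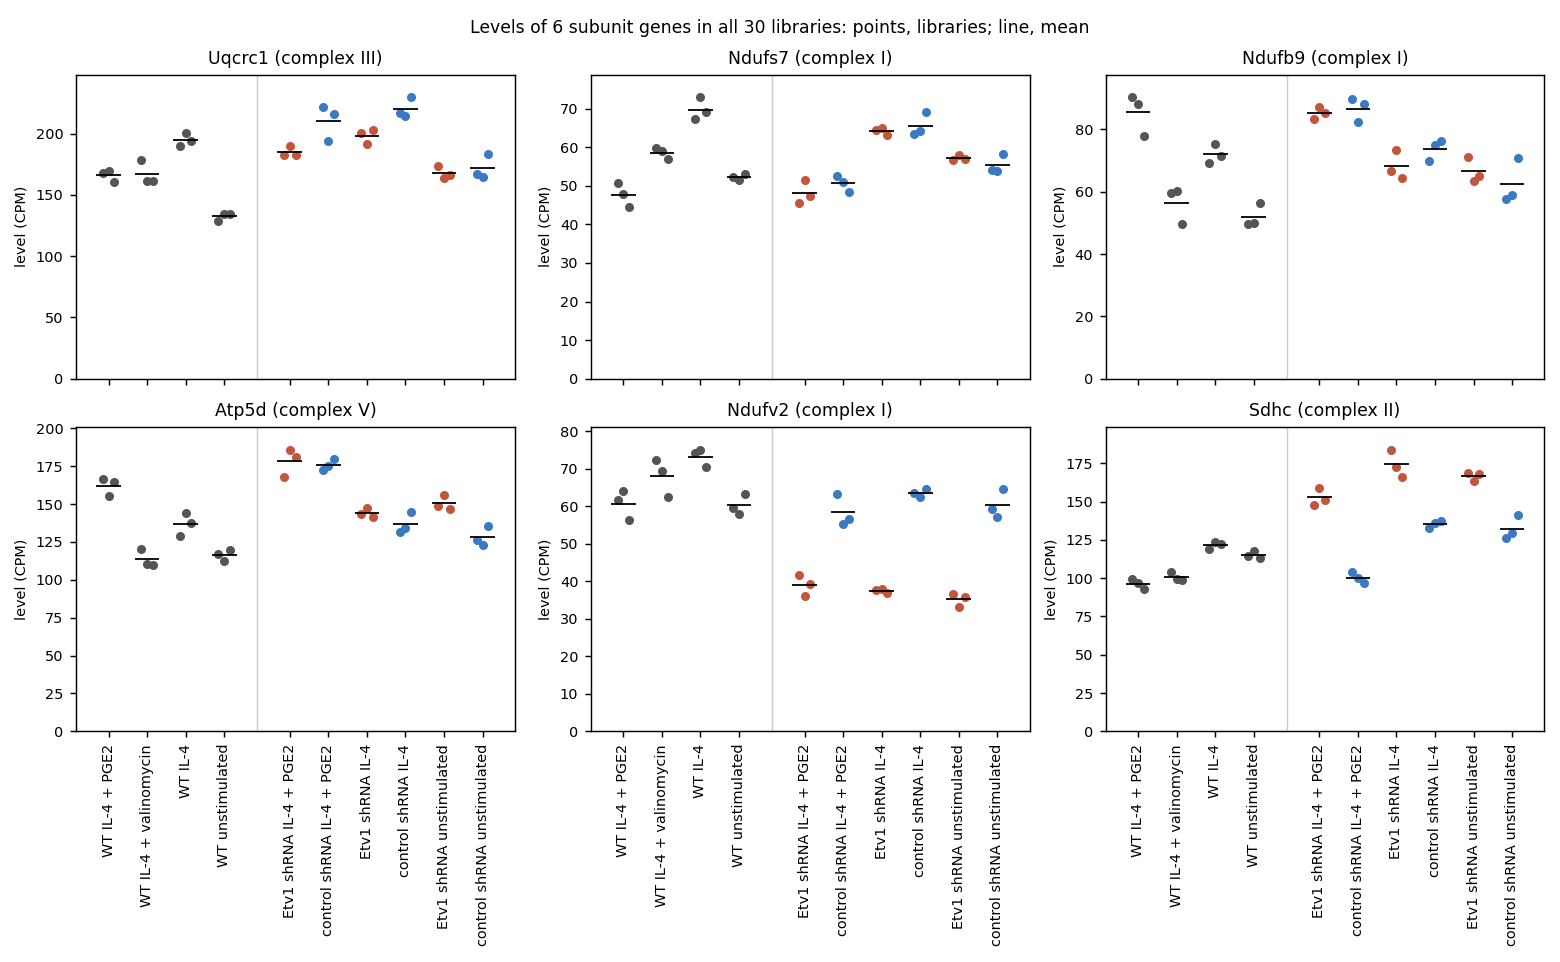
Level (CPM, y axes from 0) of 6 subunit genes in each of the 30 libraries (points; black line, mean of 3 libraries), with wild type groups in grey, Etv1 shRNA in red and control shRNA in blue. By group mean, Ndufb9 and Atp5d are highest with PGE2 in wild type and in both hairpin groups, Ndufs7 is lowest there, and Ndufv2 is lower in the 9 Etv1 shRNA libraries than in the 9 control shRNA libraries.

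In complex II, Sdhb was at 124, 112 and 104 CPM with IL-4 and PGE2, against 144, 165 and 153 CPM with IL-4 (-0.44 ± 0.06; edgeR adjusted p = 9.41e-07). Sdhc (-0.34 ± 0.05) and Sdha (-0.32 ± 0.04) fell as well, and Sdhd did not pass (-0.09 ± 0.05). In complex III, Cyc1 (-0.40 ± 0.06), Uqcr11 (-0.34 ± 0.07), Uqcrfs1 (-0.24 ± 0.05) and Uqcrc1 (-0.23 ± 0.05) fell, and Uqcrh (0.04 ± 0.06), Uqcrb (0.05 ± 0.08) and Uqcrc2 (-0.09 ± 0.05) were not called. In complex IV, Cox4i1 (-0.23 ± 0.06), Cox5b (-0.22 ± 0.06), Cox7a2 (-0.22 ± 0.05) and Cox7c (-0.22 ± 0.07) fell, but Cox5a did not pass (-0.03 ± 0.06). Cox7c lost its call without PGE2 replicate 3 (adjusted p 0.0782). Cox6b1 (-0.10 ± 0.04) and Cox7b (-0.15 ± 0.05) passed the test but lost it in 5 and 3 of the 6 fits that left out 1 of these libraries (adjusted p up to 0.128 and 0.107). Those were the fits without IL-4 replicate 2 or 3 for both, without any PGE2 library for Cox6b1 and without PGE2 replicate 3 for Cox7b. Cox6a2 was at 0.997, 0.257 and 0.973 CPM with IL-4 and PGE2, against 1.57, 2.63 and 2.50 CPM with IL-4 (-1.59 ± 0.37; edgeR adjusted p = 0.000818). Among the 682 other genes of up to 1000 bp, 36.8% fell and 14.4% rose with PGE2 (median -0.12), where 28 of 50 members of that length fell and 1 rose (median -0.18).

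Valinomycin on top of IL-4 lowered subunit genes without raising any. Against IL-4 alone, 53 of 81 members fell and none rose, where 18.9% of all tested genes fell and 19.4% rose. At an unadjusted p under 0.05 the counts were 60 lower and 0 higher, and DESeq2 called 46 lower and 0 higher. The median log2 fold change was -0.25, against -0.03 over all genes. The summed level was 7208, 7008 and 6721 CPM with valinomycin, against 7772, 8436 and 8036 CPM with IL-4, and the groups did not overlap. By complex, 25 of 37 fell in I, 3 of 4 in II, 6 of 9 in III, 6 of 14 in IV and 13 of 17 in V. The mitochondrial ribosomal RNAs mt-Rnr1 and mt-Rnr2 averaged 2661 and 5359 CPM with valinomycin, against 95.5 and 173 CPM with IL-4, and their part in this result was not tested. Of other genes of up to 1000 bp, 34.9% fell and 4.11% rose (median -0.18), where 37 of 50 members of that length fell (median -0.28).

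The largest fall of a called member was in complex III. Uqcr11 was at 61.0, 55.5 and 60.4 CPM with valinomycin, against 75.3, 99.5 and 84.7 CPM with IL-4 (-0.55 ± 0.07; edgeR adjusted p = 3.38e-06). The IL-4 libraries spread widely, with replicate 2 the highest, and still lay above the valinomycin libraries. Uqcrh (-0.30 ± 0.06), Uqcrq (-0.26 ± 0.09) and Cyc1 (-0.25 ± 0.06) fell, and Uqcrfs1 (-0.05 ± 0.05), Uqcrc2 (-0.01 ± 0.05) and Uqcrb (-0.14 ± 0.08) were not called. The Uqcrq call was lost without replicate 2 or 3 of either group (adjusted p up to 0.128). In complex I the accessory genes led. Ndufb7, of the membrane arm, was at 48.5, 47.3 and 47.8 CPM with valinomycin, against 60.9, 74.5 and 67.3 CPM with IL-4 (-0.50 ± 0.07; edgeR adjusted p = 3.46e-06). Ndufb8 (-0.43 ± 0.06), Ndufc1 (-0.41 ± 0.08), Ndufa5 (-0.38 ± 0.08) and Ndufa13 (-0.38 ± 0.07) followed. Of the 7 core genes 4 fell, Ndufs8 (-0.37 ± 0.07) among them, where 21 of the 30 other complex I subunits fell. The core genes Ndufs1 (-0.06 ± 0.05), Ndufs3 (-0.10 ± 0.06) and Ndufv2 (-0.10 ± 0.06) were not called.

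In complex II, Sdhb (-0.32 ± 0.06), Sdhc (-0.27 ± 0.05) and Sdhd (-0.27 ± 0.05) fell and Sdha did not pass (-0.05 ± 0.04). In complex IV, Cox7a2 (-0.36 ± 0.05), Cox6b1 (-0.30 ± 0.04), Cox6a1 (-0.30 ± 0.05) and Cox4i1 (-0.21 ± 0.06) were among the 6 that fell. Cox6a2 stayed within the spread (-0.05 ± 0.29; edgeR adjusted p = 0.908), at 2.68, 1.29 and 2.48 CPM with valinomycin. In complex V all 4 peripheral stalk genes fell, with Atp5h at -0.26 ± 0.06 and Atp5j at -0.24 ± 0.05. The stalk gene Atp5f1 lost its call in 5 of the 6 fits without 1 library, all but that without valinomycin replicate 1 (adjusted p up to 0.284). Atp5g1 was at 45.6, 43.1 and 39.5 CPM with valinomycin, against 58.5, 57.6 and 59.4 CPM with IL-4 (-0.45 ± 0.07; edgeR adjusted p = 1.5e-05). Atp5d fell (-0.27 ± 0.05), as did Ndufb9 (-0.35 ± 0.07), the 2 genes that rose with PGE2.

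**Figure D4:**
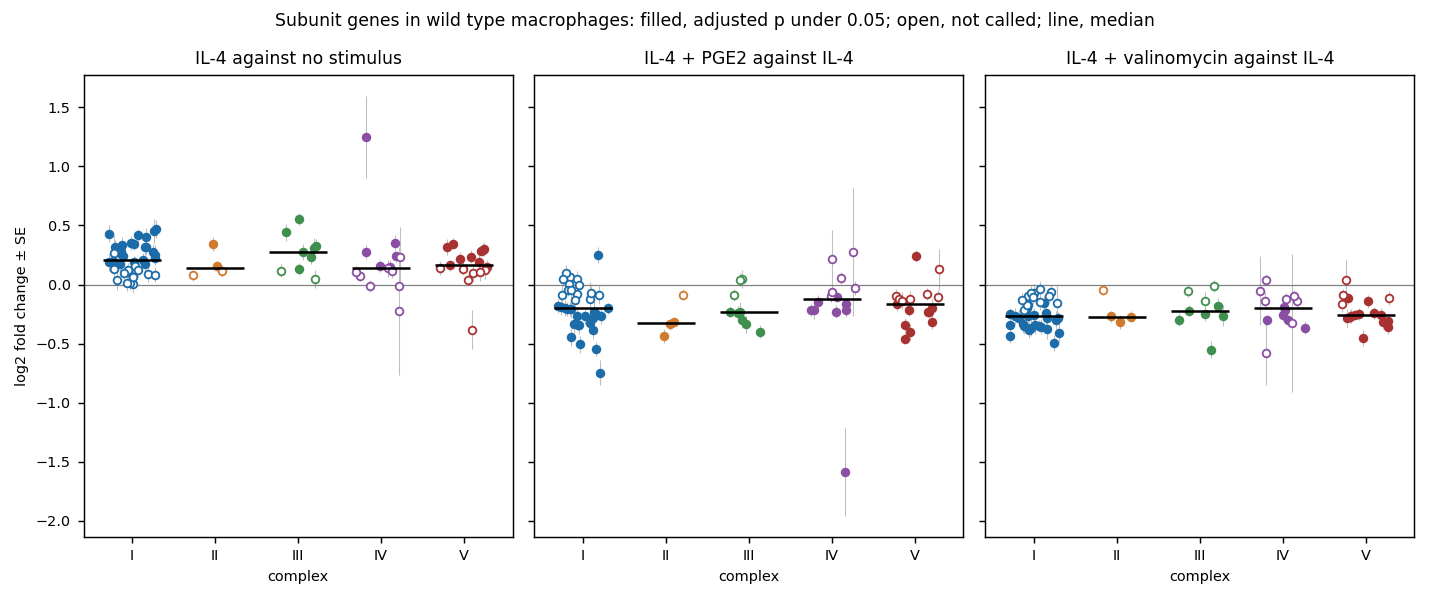
Log2 fold change ± SE of the 81 tested subunit genes by complex in 3 wild type comparisons; filled points passed an adjusted p of 0.05, open points did not, and black lines are medians. With IL-4 the called points lie above 0, with valinomycin below 0, and with PGE2 below 0 except Ndufb9 (0.25) and Atp5d (0.24); the far points of complex IV at 1.25 and -1.59 are Cox6a2.

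PGE2 and valinomycin, both on top of IL-4, were set against each other directly. With PGE2, 28 of 81 members were higher and 14 lower than with valinomycin, where 31.7% of all tested genes were higher and 31.5% lower. The median log2 difference was 0.04. Apart from Cox6a2, Cox6b2 and Cox7a1, each under 4 CPM in all these libraries, Ndufb9 differed most, at 90.4, 88.1 and 77.9 CPM with PGE2, against 59.8, 60.1 and 49.8 CPM with valinomycin (0.60 ± 0.07; edgeR adjusted p = 2.44e-07). Atp5d (0.51 ± 0.05), Ndufa3 (0.38 ± 0.07), Ndufb3 (0.38 ± 0.07), Ndufa11 (0.35 ± 0.08) and Uqcrh (0.34 ± 0.06) were higher with PGE2. Ndufa12 was lower with PGE2, at 16.9, 17.1 and 14.2 CPM, against 25.5, 25.7 and 18.8 CPM with valinomycin (-0.53 ± 0.11; edgeR adjusted p = 0.000171). Ndufab1 (-0.37 ± 0.07), Atp5b (-0.34 ± 0.05), Ndufs7 (-0.29 ± 0.06) and Sdha (-0.27 ± 0.04) were lower with PGE2 as well, whereas Sdhd was higher (0.19 ± 0.05).

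Both treatments were also set against no stimulus, with median log2 fold changes of 0.01 for PGE2 and -0.04 for valinomycin over the tested members. With IL-4 and PGE2, 8 of 81 were higher and 6 lower than in unstimulated cells, where 30.1% of all tested genes were higher and 28.6% lower. Library totals as the only scaling gave 5 higher and 15 lower. Ndufb9 was at 90.4, 88.1 and 77.9 CPM with IL-4 and PGE2, against 49.7, 49.9 and 56.2 CPM unstimulated (0.72 ± 0.07; edgeR adjusted p = 1.69e-08). Atp5d (0.48 ± 0.05), Ndufv3 (0.43 ± 0.07), Uqcrc1 (0.32 ± 0.05) and Cox5a (0.32 ± 0.06) were higher too. Sdhc (-0.26 ± 0.05), Atp5g2 (-0.20 ± 0.06) and Sdha (-0.16 ± 0.04) were lower. With IL-4 and valinomycin, 12 were higher and 19 lower than in unstimulated cells, where 26.9% of all tested genes were higher and 25.8% lower (7 and 26 on library totals alone). Uqcrc1 (0.33 ± 0.05), Ndufab1 (0.25 ± 0.07), Cox5a (0.21 ± 0.06) and Ndufs3 (0.21 ± 0.06) were higher. Ndufb3 (-0.32 ± 0.07), Ndufb11 (-0.24 ± 0.06), Ndufb7 (-0.24 ± 0.07) and Cox6b1 (-0.23 ± 0.04) were lower.

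With the Etv1 hairpin, called subunit genes lay in both directions. Against control shRNA, 24 of 80 tested members were higher and 16 lower in unstimulated cells, where 24.9% of all 12382 tested genes were higher and 26.8% lower. With IL-4, 24 were higher and 18 lower (all genes, 25.4% and 25.6%). With IL-4 and PGE2, 33 were higher and 14 lower (all genes, 27.6% and 26.7%). Without stimulus and with IL-4 the members' shares were near those of all genes. The median log2 differences were 0.06, 0.01 and 0.11. On library totals alone all genes shifted by 0.12, 0.12 and 0.16 and the members' counts were 41 and 7, 37 and 6, and 45 and 5. The summed macrophage markers given above were lower in each Etv1 shRNA group than in its control group, and their part in these differences was not tested.

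The 3 hairpin comparisons share no library, but all rest on the 1 Etv1 and 1 control hairpin group that the labels name. A call that recurs in all 3 is therefore not an independent replication. In all 3, 20 members (25% of 80) were called higher, against 15.4% of all genes, and 8 members (10%) were called lower, against 14.8%. On library totals alone the counts were 35 higher, against 25.1% of all genes, and 4 lower, against 9.41%. As a description across the 80 members, the log2 differences of 2 conditions had a Pearson r of 0.89 for no stimulus and IL-4, 0.81 for no stimulus and PGE2 and 0.86 for IL-4 and PGE2, where r over all genes was 0.84, 0.73 and 0.79. Ndufv2, the core iron-sulfur subunit of the NADH-binding module, was the member with the largest fall. It was at 36.6, 33.2 and 35.7 CPM in unstimulated Etv1 shRNA cells, against 59.2, 57.1 and 64.6 CPM in control shRNA cells (-0.78 ± 0.07; edgeR adjusted p = 1.61e-08). With IL-4 it was at 37.7, 38.0 and 36.9 CPM, against 63.6, 62.3 and 64.7 CPM in control shRNA cells (-0.76 ± 0.07; edgeR adjusted p = 2.43e-08). With IL-4 and PGE2 it was at 41.7, 36.0 and 39.4 CPM, against 63.2, 55.4 and 56.5 CPM (-0.58 ± 0.07; edgeR adjusted p = 6.2e-07). No Etv1 shRNA library reached the lowest control shRNA library.

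**Figure D5:**
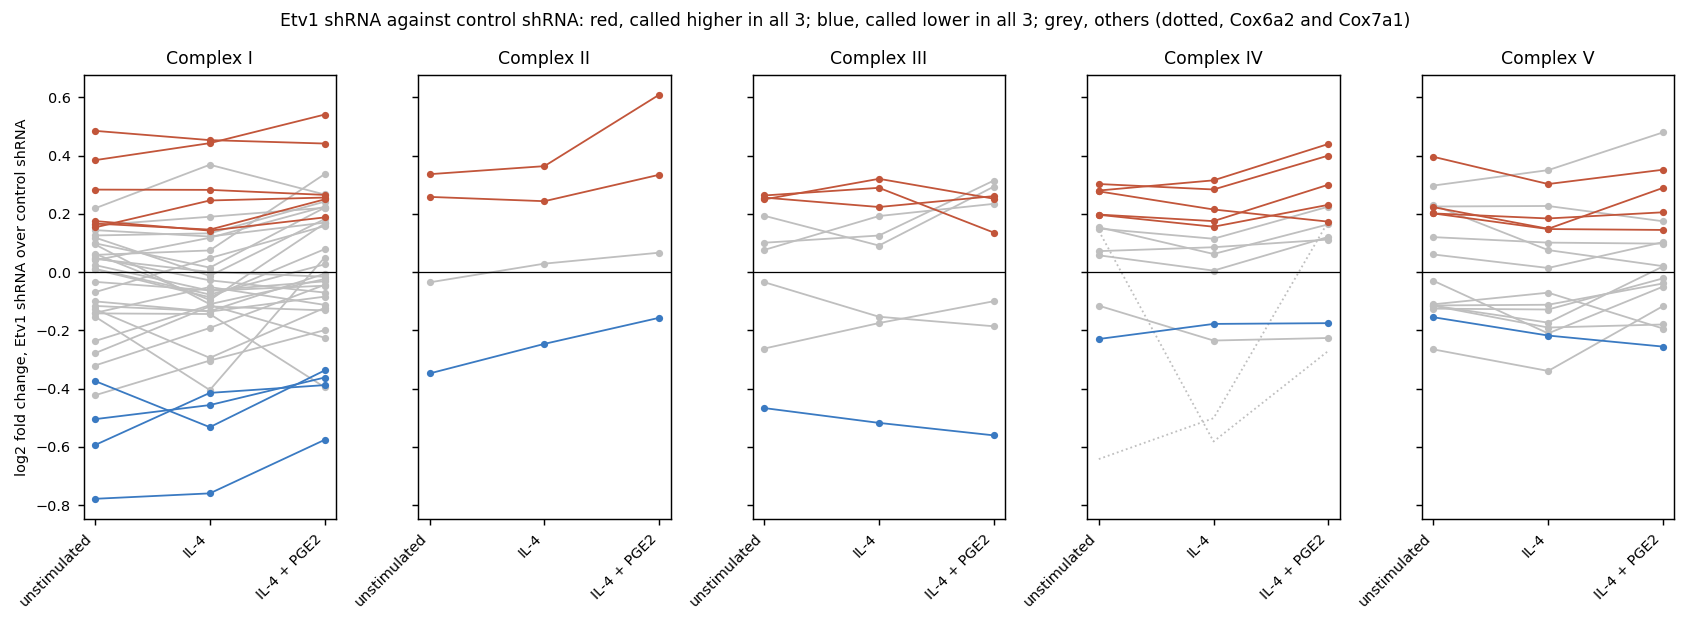
Log2 fold change of each tested subunit gene, Etv1 shRNA over control shRNA, in unstimulated cells, with IL-4 and with IL-4 and PGE2, by complex. Red lines are the 20 genes called higher in all 3 conditions, blue lines the 8 called lower in all 3, grey lines the others, and dotted lines the low Cox6a2 and Cox7a1; the lowest blue line of complex I is Ndufv2 (-0.78, -0.76 and -0.58) and the highest red line of complex II is Sdhc (0.34, 0.36 and 0.61).

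The other members lower in all 3 conditions were Ndufa5, Ndufa11, Ndufb6, Sdhb, Uqcrq, Cox4i1 and Atp5o. Ndufa5, of the peripheral arm, was at 15.9 ± 2.09 CPM in unstimulated Etv1 shRNA cells (mean ± SD, n = 3), against 24.2 ± 0.968 CPM in control shRNA cells, with log2 differences of -0.59, -0.41 and -0.39 in the 3 conditions. Uqcrq, the ubiquinone-binding protein of complex III, had -0.47, -0.52 and -0.56, and Ndufa11 -0.50, -0.46 and -0.36. On library totals alone, Ndufv2, Ndufa5, Ndufa11 and Uqcrq were called lower in all 3 and the other 4 were not. Atp5o lost its call in unstimulated cells in 4 of the 6 fits that left out 1 library (control shRNA replicate 1 or 3, Etv1 shRNA replicate 1 or 2; adjusted p up to 0.214). With IL-4 it lost the call without control shRNA replicate 3 (0.0508). With RLE scaling it was not called in unstimulated cells (0.0610).

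Among the members higher in all 3, Ndufa3 read 56.0, 55.2 and 51.5 CPM in Etv1 shRNA cells with IL-4, against 39.4, 39.1 and 40.4 CPM in control shRNA cells (0.45 ± 0.06; edgeR adjusted p = 7.47e-06). Ndufa4 read 121, 135 and 123 CPM, against 93.9, 89.0 and 95.8 CPM (0.44 ± 0.07; edgeR adjusted p = 2.67e-05). In complex II the subunits split: Sdha (0.26, 0.24 and 0.33) and Sdhc (0.34, 0.36 and 0.61) were higher, Sdhb (-0.35, -0.25 and -0.16) was lower, and Sdhd was not called in any of the 3. On library totals alone, Sdhb with PGE2 was at 0.00080 (edgeR adjusted p = 0.993). Complex III split likewise, with Cyc1, Uqcr11 and Uqcrh higher and Uqcrq lower in all 3. In complex IV, Cox7a2l (0.28, 0.32 and 0.44), Cox7b (0.30, 0.28 and 0.40) and Cox6a1 (0.28, 0.22 and 0.17) were higher, Cox6a1 with PGE2 not without control shRNA replicate 1 or Etv1 shRNA replicate 2 or 3 (adjusted p up to 0.0732). Without control shRNA replicate 2 or 3 or Etv1 shRNA replicate 1 or 3, Sdhb with PGE2 was not called (up to 0.207). Of the 5 genes with ETS letters in their window, Ndufs3 (0.28, 0.28 and 0.27), Uqcr11 (0.26, 0.22 and 0.26) and Uqcrh (0.26, 0.29 and 0.14) were higher in all 3. Of all tested members 25% and of all genes 15.4% were called so, and the share among all genes with ETS letters is not given here. The 5 genes are few, 19 members had no window, and a relation of these letters to the hairpin was not tested. With PGE2, Uqcrh lost its call in 5 of the 6 fits without 1 library, all but that without Etv1 shRNA replicate 2 (adjusted p up to 0.284), and with RLE scaling, no filter, only the groups compared or DESeq2 (up to 0.138). Uqcr11 lost its call without control shRNA replicate 1 in unstimulated cells (0.0579), and without control shRNA replicate 1 or Etv1 shRNA replicate 1 with IL-4 (up to 0.157). Atp5h (-0.11, -0.07 and -0.19) was called lower with PGE2, though not on library totals alone, and not called in the other 2 conditions, and Cox8a (0.06, 0.01 and 0.12) was not called.

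The IL-4 comparison was repeated in the transduced cells, where few subunit genes were called. Log2 fold changes were above 0 for 61 of 80 members in Etv1 shRNA and 69 of 80 in control shRNA cells. The summed level was 8199, 8214 and 7914 CPM with IL-4 in Etv1 shRNA cells, against 7665, 7677 and 7648 CPM unstimulated, without overlap. In control shRNA cells it was 7647, 7763 and 7997 CPM, against 7045, 6998 and 7756 CPM, and the groups overlapped. In Etv1 shRNA cells, 8 of 80 members rose and none fell against no stimulus, where 10.9% of all genes rose and 7.16% fell. RLE or library-total scaling, no filter and DESeq2 gave 2 to 5, and leaving out any 1 of the 6 libraries gave 2 to 4. At an unadjusted p under 0.05, 18 were higher and 1 lower. Sdhd (0.19 ± 0.04; edgeR adjusted p = 0.00413) and Uqcrc1 were the 2 with the smallest adjusted p, and Sdhd was not called without the filter (0.0672). In control shRNA cells, 15 rose and 1 fell, where 17.2% of all genes rose and 17.1% fell. With either hairpin the share of members that rose was near that of all genes. The 16 calls also became 8 with library totals alone, 7 without a filter, 4 with only these 2 groups in the fit, and 5, 8 and 6 without IL-4 replicate 3, unstimulated replicate 1 and unstimulated replicate 2. Control shRNA unstimulated replicate 3 stood apart in the sums, at 7756 CPM, against 7045 and 6998 CPM in the other 2. Uqcrc1 was at 217, 214 and 229.8 CPM with IL-4 in control shRNA cells, against 167, 165 and 184 CPM unstimulated (0.36 ± 0.06; edgeR adjusted p = 3.98e-05). In Etv1 shRNA cells it was at 200.4, 191 and 203 CPM, against 174, 164 and 166 CPM (0.24 ± 0.06; edgeR adjusted p = 0.00466). Of the 48 members that rose with IL-4 in wild type cells, 14 also rose in control shRNA cells, which is 14 of the 15 that rose there. The matching count over all genes is not given here. As a description across 80 members, the log2 fold changes of the 2 comparisons had a Pearson r of 0.74, where r over all genes was 0.82. Ndufa2 was the member that fell in control shRNA cells (-0.22 ± 0.08; edgeR adjusted p = 0.0383), and it lost the call without IL-4 replicate 1 or 2 or unstimulated replicate 3 (up to 0.264).

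PGE2 on top of IL-4 lowered 11 and raised 11 of 80 members in Etv1 shRNA cells, where 22.8% of all genes fell and 24.6% rose. Without the PGE2 replicate 2 library, 6 fell and 6 rose, and on library totals alone 15 fell and 9 rose. In control shRNA cells, 23 fell and 8 rose, where 30.1% of all genes fell and 29.3% rose. The shRNA shares were thus near or under those of all genes. Of the 48 members that fell with PGE2 in wild type cells, 20 also fell in control shRNA cells, which is 20 of the 23 that fell there. As a description across 80 members, the log2 fold changes of the 2 comparisons had a Pearson r of 0.78, where r over all genes was 0.83. The matching count over all genes is not given here, nor is one for the members named next. The members lower with PGE2 in wild type and both hairpin groups were Atp5b, Atp5g1, Ndufa10, Ndufs3, Ndufs7, Ndufv1, Sdha and Sdhc, and those higher in all were Atp5d and Ndufb9. Ndufs7 was at 45.6, 51.5 and 47.4 CPM with PGE2 in Etv1 shRNA cells, against 64.5, 65.1 and 63.3 CPM with IL-4 (-0.42 ± 0.06; edgeR adjusted p = 6.39e-06). In control shRNA cells it was at 52.6, 51.0 and 48.5 CPM, against 63.5, 64.2 and 69.1 CPM (-0.38 ± 0.06; edgeR adjusted p = 1.31e-05). Ndufb9 changed by 0.32 ± 0.07 in Etv1 shRNA and 0.24 ± 0.07 in control shRNA cells, and Atp5d by 0.31 ± 0.05 and 0.36 ± 0.05. Atp5b lost its call in Etv1 shRNA cells in 5 of the 6 fits without 1 library, all but that without IL-4 replicate 3 (up to 0.12). There Ndufa10 lost it without IL-4 replicate 1 or 2 or PGE2 replicate 2 or 3 (up to 0.154), and Ndufv1 without IL-4 replicate 2 or 3 or PGE2 replicate 1 or 2 (up to 0.132). Ndufv1 also lost it in control shRNA cells without PGE2 replicate 3 (0.0626), and in wild type cells without IL-4 replicate 2 or PGE2 replicate 1 (up to 0.102). The complex III hinge gene Uqcrh, not called in wild type cells, rose in both (0.25 ± 0.06 and 0.40 ± 0.06), as did Ndufa1 (0.29 ± 0.08 and 0.26 ± 0.08). In control shRNA cells Ndufa1 lost its call without PGE2 replicate 3 (adjusted p 0.0523) and Ndufb9 without IL-4 replicate 1 (0.0503).

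The difference of the PGE2 effect between the hairpins was tested directly. Of 80 members, 1 was called with a higher PGE2 effect in Etv1 shRNA cells and none with a lower one, where 6.03% of all genes had a higher and 5.58% a lower effect. At an unadjusted p under 0.05 there were 8 higher and 1 lower, and DESeq2 called 1 higher. With RLE scaling, and with only the 4 groups in the fit, none was higher and 1 was lower, Ndufa13 (RLE -0.26; edgeR adjusted p = 0.0448), which was at -0.25 ± 0.08 with TMM scaling (0.0584). The gene called higher was Sdhc. It was at 148, 159 and 151 CPM with PGE2 in Etv1 shRNA cells, against 184, 173 and 166 CPM with IL-4, a log2 fold change of -0.19 ± 0.05. In control shRNA cells it was at 104, 100.3 and 96.5 CPM, against 133, 136 and 138 CPM (-0.44 ± 0.05). The difference of the effects was 0.25 ± 0.08 (edgeR adjusted p = 0.0413), and leaving out 1 library gave 0.21 to 0.28 with the call lost in 8 of 12 fits, those without replicate 2 or 3 of any of the 4 groups (adjusted p up to 0.121). For the IL-4 effect no member was called, where 2.71% of all genes had a higher and 1.81% a lower effect. There 0 members were higher and 1 lower at an unadjusted p under 0.05, and DESeq2 called 0.

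Other genes of the pathway were read from 5 lists. Of all tested genes in wild type cells, 24% rose and 22.4% fell with IL-4, 29.9% rose and 29.5% fell with PGE2, and 19.4% rose and 18.9% fell with valinomycin. Among transcription regulators of respiratory genes (14 tested in wild type), 5 rose and 3 fell with IL-4, 3 rose and 6 fell with PGE2, and 2 rose and 2 fell with valinomycin. Counts of 2 or 3 of 14 are near or under the shares of all genes. Ppargc1b, the PGC-1 beta coactivator, was at 14.8, 11.2 and 12.8 CPM with IL-4, against 2.90, 3.82 and 3.15 CPM unstimulated (1.98 ± 0.15; edgeR adjusted p = 8.67e-11). It was at 3.37, 3.17 and 2.53 CPM with IL-4 and PGE2 (-2.07 ± 0.15 against IL-4; edgeR adjusted p = 4.11e-11) and at 9.71, 8.49 and 9.78 CPM with IL-4 and valinomycin (-0.47 ± 0.12; edgeR adjusted p = 0.00418). The PGE2 libraries lay at the unstimulated level and the valinomycin libraries between them and the IL-4 libraries. Ppargc1b also fell with PGE2 in Etv1 shRNA (-3.01 ± 0.27) and control shRNA cells (-2.91 ± 0.26). The median subunit log2 fold changes there were 0.02 and -0.04. With IL-4, Ppargc1b was at 7.45, 5.62 and 7.63 CPM in Etv1 shRNA cells, against 2.96, 2.01 and 2.34 CPM unstimulated. In control shRNA cells it was at 7.76, 5.53 and 7.44 CPM, against 0.880, 1.39 and 0.713 CPM. The subunit medians for IL-4 were 0.05 and 0.07. A relation of the subunit genes to Ppargc1b was not tested. Its partner receptor gene Esrra was at 58.7, 60.3 and 58.7 CPM with IL-4, against 39.7, 35.8 and 40.8 CPM unstimulated (0.61 ± 0.07), changed by -0.42 ± 0.07 with PGE2, and was higher with Etv1 shRNA in the 3 conditions (0.69, 0.38 and 0.36). Pprc1, another PGC-1 family coactivator, changed by 0.43 ± 0.07 with IL-4 and -1.16 ± 0.07 with PGE2. With IL-4 and valinomycin it was at 110, 99.8 and 95.7 CPM, against 104, 88.7 and 96.9 CPM with IL-4, and the groups overlapped. The list median of the log2 fold change with valinomycin was 0.08, against -0.25 for the 81 subunit genes. The 3 regulators that fell with IL-4 and the 3 that rose with PGE2 are not named here.

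Of 46 tested assembly factors, 17 rose and 2 fell with IL-4, 6 rose and 19 fell with PGE2, and none rose and 9 fell with valinomycin. Of all genes, 24%, 29.9% and 19.4% rose and 22.4%, 29.5% and 18.9% fell in these comparisons, and the valinomycin falls are near that share. The complex I factor Ndufaf4 was at 9.74, 8.58 and 9.05 CPM with PGE2, against 21.3, 16.5 and 18.7 CPM with IL-4 (-1.04 ± 0.11). Coa7 (-1.13 ± 0.15) fell and Sdhaf2, which adds the flavin to Sdha, rose (0.93 ± 0.06). With the hairpin, 6 assembly factors were higher and 10 lower in unstimulated cells, 7 and 12 with IL-4, and 15 and 10 with PGE2. Of all genes, 24.9% and 26.8%, 25.4% and 25.6%, and 27.6% and 26.7% were higher and lower there, so most of these counts are near or under the background. Ndufaf2, a complex I assembly factor, was at 1.75, 1.09 and 1.33 CPM in unstimulated Etv1 shRNA cells, against 9.83, 9.54 and 10.8 CPM in control shRNA cells (-2.89 ± 0.16; edgeR adjusted p = 3.07e-11). With IL-4 and with PGE2 the log2 differences were -3.11 ± 0.17 and -3.00 ± 0.17, and no Etv1 shRNA library came near the control shRNA libraries. Of 17 genes of coenzyme Q synthesis and electron carriers, 6 rose and 2 fell with IL-4, 3 rose and 9 fell with PGE2, and 3 rose and 3 fell with valinomycin. Cycs, which encodes cytochrome c, was at 40.2, 43.4 and 40.4 CPM with PGE2, against 65.2, 58.5 and 56.4 CPM with IL-4 (-0.54 ± 0.07). Of 9 mitochondrial membrane carriers and channels, 2 rose and 1 fell with IL-4, 1 rose and 5 fell with PGE2, and 1 rose and 2 fell with valinomycin. Vdac2, a channel of the outer membrane on that list, changed by -0.86 ± 0.04 with PGE2. Of the 8 mitochondrially encoded subunit genes tested, none rose and 1 fell with IL-4, 3 rose and none fell with PGE2, and none rose and 4 fell with valinomycin, with mt-Cytb at -0.58 ± 0.10.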

How the data were processed

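RNA was measured in 30 libraries made with a stranded mRNA kit. The deposited tables hold raw counts per gene, and the submitters' processing notes name STAR, featureCounts and GRCm38 without versions. Symbols came from GENCODE M21: 42548 of 43629 gene IDs matched (97.52%), and unmatched IDs held 0.153% of counts. Wild type (12) and shRNA (18) libraries were fitted apart with edgeR 4.0.16 (R 4.3.3; TMM scaling, filterByExpr, robust quasi-likelihood test), each with all its groups in 1 model. A gene was called at an adjusted p under 0.05, by Benjamini-Hochberg over all genes tested. The SE of a log2 fold change is its size over the root of the F statistic. The code was tested on simulated counts with 200 changed genes.

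The members, the 5 pathway lists, the marker lists and the rule for named genes were chosen with earlier results of these data known. The rule took subunits with tissue forms, the complex II genes and Cyc1. It also took up to 2 called members per complex and direction with the smallest adjusted p, and up to 8 with the largest change and at least 5 CPM in the wild type comparisons with IL-4. Members called against the main direction or between hairpins, and up to 4 genes per pathway list, completed it. Other genes named were chosen after their values were seen, and 1 member that the rule named is not reported here. Within each hairpin, replicates of the same number deviated together in the IL-4 and PGE2 pairs of groups (Pearson r from 0.106 to 0.49). Those libraries may thus be paired by number. Some of other numbers deviated together too, for example control shRNA IL-4 replicate 1 and PGE2 replicate 3 (r 0.16). The wild type groups and the hairpin pairs did not pass the check on same numbers, which used a threshold of 0.1. Among the wild type IL-4, PGE2 and valinomycin groups, same numbers still had r of 0.0529 to 0.198. Other numbers there reached at most 0.0337, so these libraries may be paired too. With the wild type unstimulated group, same numbers had r of -0.0758 to 0.0253. The reported fits and p-values ignored any pairing, and only the replicate block, an alternative, took it into account. Alternatives were a replicate block, RLE and library-total scaling, no filter, a fit that was not robust, only the groups compared, DESeq2 1.42.0 and leaving out each library.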

Additional observations from a re-analysis of the deposited data

Results flagged for a closer look

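The PGE2 effect on Sdhc, the complex II membrane anchor, differed between the hairpins by 0.25 on the log2 scale in the test of the difference (edgeR adjusted p = 0.0413). The PGE2 effect itself was a fall in both hairpin groups, the smaller one in Etv1 shRNA cells. The difference was not called under RLE scaling, without the filter on low counts, with only the groups compared in the fit, or in 8 of the 12 fits without 1 library. It was higher than 0 in all these fits.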

How the results depend on the processing

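The number of members called for IL-4 in Etv1 shRNA cells, 8, became 4 with RLE scaling, 2 with library totals, 2 without the filter, 5 with DESeq2, and 2 to 4 without 1 library. For IL-4 in control shRNA cells, 16 became 8 with library totals, 7 without the filter, 4 with only the groups compared, and 5 to 18 without 1 library. For PGE2 in Etv1 shRNA cells, 22 became 12 to 19 without 1 library. For the difference of the PGE2 effect, 1 became 2 with library totals, 0 without the filter, and 0 to 3 without 1 library. RLE scaling and a fit of only the groups compared each gave 1, Ndufa13 on the lower side in place of Sdhc. The replicate block gave 2 there, of which 1 was lower, and changed no other count by over 1.5 times.

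On library totals the summed level became 8237, 8481 and 8259 CPM in Etv1 shRNA cells (unstimulated, IL-4, IL-4 with PGE2), 7468 CPM in control shRNA cells with IL-4, 6866 CPM with IL-4 and PGE2, and 7081 CPM in unstimulated wild type cells. On those totals 2 hairpin differences changed sign, Atp5c1 in unstimulated cells to 0.0061 (edgeR adjusted p = 0.931) and Sdhb with PGE2 to 0.00080 (0.993). The causes of these moves were not tested.

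Of 5934 recomputed values of named genes, over 441 gene and comparison pairs, 5490 kept direction and call, 398 lost the call, 44 gained one and 2 reversed. With 3 libraries per group, changes of low genes such as Cox6a2, Cox6b2 and Cox7a1 rest on few counts.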
